A study of Homo sapiens with 10 samples.

Results

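The second pair of A549 input libraries consisted of 2 RNA-seq libraries of A549, an established line of human lung adenocarcinoma cells, and was compared with the first pair of A549 inputs, also 2 libraries of the same line. An input is RNA sequenced without being pulled down by an antibody. The 2 pairs carry the same sample labels apart from a full stop, and these 4 libraries are among 10 in the series. The others are 2 inputs of A549/DDP, a cisplatin-resistant form of A549, and 4 m6A-seq libraries, in which RNA fragments that carry N6-methyladenosine are pulled down. The labels describe all 4 A549 inputs as cells of at most 10 passages in RPMI medium with fetal bovine serum and no antibody, and all are cultures of 1 cell line. No label says which experiment the second pair belongs to. The study describes m6A-seq inputs made from poly(A)-selected RNA and also inputs of a YTHDF1 RIP-seq experiment, so RNA selection, library kit, sequencing run and culture cannot be told apart from the pair. Genes entered the comparison if both libraries of at least 1 pair held 10 or more expected counts, which are the read counts that the program RSEM estimates for each gene. Of 58037 gene identifiers, 14728 passed, 1837 through both pairs, 12861 through the first pair only and 30 through the second pair only. At this edge, 47 genes had 10 to 11 counts in both libraries of the second pair and 80 had 8 to under 10.

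Mitochondria transcribe both strands of their own circular genome into long precursors, which are cut into ribosomal RNAs, tRNAs and mRNAs for subunits of the respiratory chain. The 12S and 16S ribosomal RNAs, MT-RNR1 and MT-RNR2, lie close to the promoter and are made in excess over the mRNAs. They build the ribosomes inside the mitochondrion. Their tails of adenosines are short, whereas nuclear mRNAs carry long poly(A) tails, and most histone mRNAs and small RNAs such as 7SK and 7SL carry none.

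The second pair was far shallower than the first and most of its counts lay on mitochondrial genes. Total expected counts were 855034 and 982036 in the second pair, against 35286514 and 34570074 in the first. Genes whose symbol starts with MT- held 75.2% (95% Wilson interval 75.1% to 75.3%) and 73.9% (73.8% to 74.0%) of the counts of the second pair. The same genes held 0.0363% and 0.0547% in the first pair, and 0.0446% and 0.0501% in the A549/DDP inputs, so the groups did not overlap and the second pair stood apart from all the other inputs. With 2 libraries against 2, the exact permutation test cannot reach a p under 0.05, and no test was made of this share. The intervals cover counting error only.

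Outside the mitochondrial genes the second pair also held other classes of RNA. Identifiers without a gene symbol took 11.2% and 12.5% of its counts, against 0.819% and 0.833% in the first pair. Small structured RNAs took 1.53% and 1.74%, against 0.00517% and 0.00476%. Every other named gene together took 11.9% and 11.7%, or 101358 and 114667 counts, whereas these genes took 99.1% in both libraries of the first pair. Of the counts outside MT- genes, protein-coding genes held 45.7% and 43.1% in the second pair and 97.6% and 97.5% in the first. The plot of classes by library shows this exchange.

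**Figure D1:**
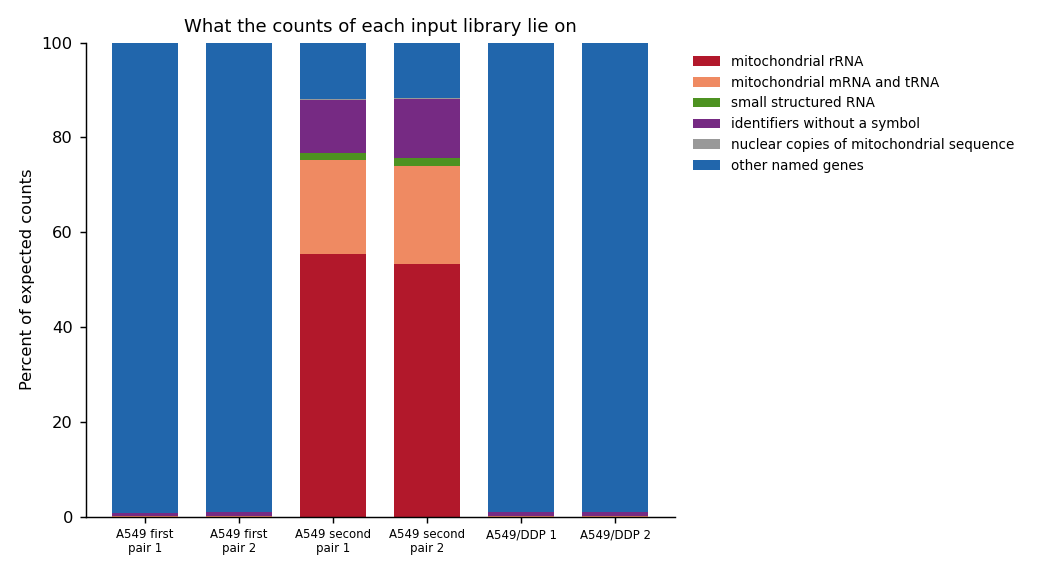
Stacked bars give the percent of expected counts (vertical axis) on each class of RNA in each of the 6 input libraries (horizontal axis). Mitochondrial rRNA filled 55.4% and 53.3% of the bars of the second pair, and other named genes filled 99.1% of both bars of the first pair.

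The 2 mitochondrial ribosomal RNAs led the second pair. MT-RNR2, the 16S RNA of the large mitochondrial ribosomal subunit, held 1882 and 2852 counts in the first pair and 403992 and 436756 in the second. MT-RNR1, the 12S RNA of the small subunit, held 108 and 136 counts in the first pair and 69914 and 86236 in the second. Both second-pair libraries were above both first-pair libraries in raw counts as well, although their totals were far smaller. As a share of all counts, MT-RNR2 rose from 0.00533% and 0.00825% to 47.2% and 44.5%, 6753-fold by the means of the pairs. MT-RNR1 rose from 0.000306% and 0.000393% to 8.18% and 8.78%, 24244-fold by the means.

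All 13 mitochondrial mRNAs were also higher in the second pair, but by less than the ribosomal RNAs. MT-ND2, a subunit of complex I, held 766 and 978 counts in the first pair and 28598 and 32454 in the second, and its share rose 1329.8-fold. MT-CO1, the core subunit of complex IV, held 2771 and 4106 counts in the first pair and 29221 and 39164 in the second, and its share rose 375-fold. MT-ND4L, a small complex I subunit, had the smallest rise of the 13 in share, 126-fold, with 84 and 174 counts in the first pair and 395 and 463 in the second. In the other complexes, the share of MT-CYB (complex III) rose 740-fold and that of MT-ATP6 (the ATP synthase) 570-fold. The plot of mitochondrial genes shows that the share of each of the 15 was higher in both libraries of the second pair than in either of the first. The same held for 0.856% of all genes tested, whereas 95.5% were lower in both and 96.4% did not overlap in either direction.

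**Figure D2:**
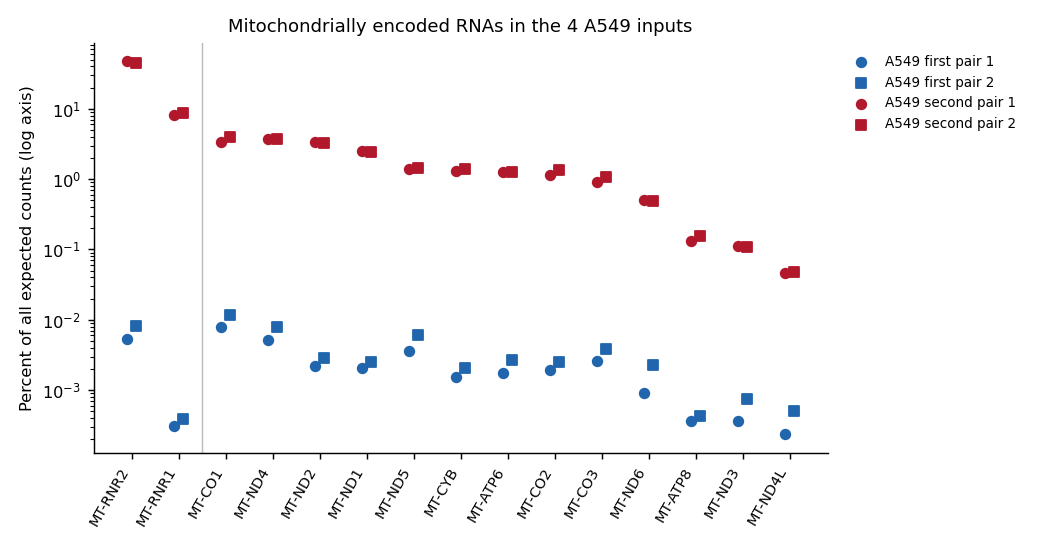
Each point is 1 library's percent of all expected counts (log axis) on 1 mitochondrial gene, with rRNAs left of the grey line and mRNAs right of it. Points of the second pair (red) lay above those of the first pair (blue) for all 15 genes, from 126-fold for MT-ND4L to 24244-fold for MT-RNR1 by the means of the pairs.

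In edgeR's quasi-likelihood test with all genes, these 15 MT- genes were called higher in the second pair, where called means a Benjamini-Hochberg adjusted p under 0.05. In this fit 15.3% of 14728 genes were called, 6.69% higher and 8.61% lower. The log2 fold changes were 17.70 ± 0.61 (SE, n = 2 per pair) for MT-RNR1 (edgeR adjusted p = 1.03e-181), 15.86 ± 0.65 for MT-RNR2 (edgeR adjusted p = 1.21e-128) and from 10.12 (MT-ND4L) to 13.51 (MT-ND2) for the mRNAs. They are larger than the folds in share, since edgeR's TMM factors set the libraries level on ordinary genes, which hold a small part of the second pair. The 22 mitochondrial tRNAs could not be compared. They are shorter than the fragments, have an effective length of 0 in the tables and held 1 count in all, on MT-TV in replicate 2 of the second pair.

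The make-up of the mitochondrial RNA differed between the pairs too. The ratio of rRNA to mRNA counts was 2.80 and 2.58 in the second pair, 0.184 and 0.188 in the first and 0.0956 and 0.0885 in the A549/DDP inputs. Ribosomal RNA was thus 73.7% and 72.0% of mitochondrial counts in the second pair and 15.6% and 15.8% in the first. Per base of transcript, MT-RNR2 exceeded MT-RNR1 by 3.54 and 3.10 times in the second pair, by 10.7 and 12.8 times in the first, and by 5.39 and 5.23 times in A549/DDP. Among the 13 mRNAs ordered by counts per kilobase, the order was nearly the same in both libraries of the second pair (Spearman's rho 0.989). Between the pairs rho was 0.549 to 0.791, and within the first pair 0.874. These rank correlations over 13 genes of 1 genome are descriptions.

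TPM gave a partly different picture of the same libraries, since TPM divides by effective length. For long transcripts, effective length is transcript length less the mean fragment length. The median difference in such transcripts was 246 and 240 bases in the second pair against 109 and 126 in the first. The relation does not hold for transcripts shorter than the fragments. MT-ATP8, an ATP synthase subunit with a transcript of 207 bases, had an effective length of 98.1 and 81.3 bases in the first pair and 10.7 and 12.3 in the second. Its 1122 and 1540 counts, 0.131% and 0.157% of the second pair, became 84155 and 84666 TPM. This was above MT-RNR1 at 79129 and 81443 TPM, which held many more counts. By TPM, MT- genes held 59.4% and 57.1% of the second pair, less than by counts. Effective length was 0 for 6207 and 5996 identifiers in the second pair and for 1801 and 2223 in the first.

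After MT- genes were removed, 14713 genes were left, with 211799 and 256064 counts in the second pair. Across genes, Pearson's r of log2(TPM + 1) between the means of the pairs was 0.717 before and 0.775 after removal, and Spearman's rho was 0.807 and 0.809. After removal single libraries of different pairs correlated at r = 0.722 to 0.748, below the r = 0.844 within the second pair and the r = 0.958 within the first. By rank the libraries of the second pair were no closer to each other than to the first pair, at rho = 0.758 against 0.735 to 0.765 between pairs. Over the 1822 genes with 10 or more counts in both libraries of both pairs, rho was 0.899 within the second pair and 0.572 to 0.617 between pairs. The second pair correlated with the A549/DDP inputs at r = 0.646 to 0.654, below its values with the first A549 pair. Genes are not independent replicates, and the libraries differ in depth.

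Fewer genes were seen in the second pair than its depth alone would give. Outside MT- genes, 9376 and 10008 genes had 1 or more counts and 2173 and 2475 had 10 or more. A first-pair library thinned to the same number of counts would be expected to hold 11883 to 12480 genes with 1 or more and 4562 to 5431 with 10 or more. When small structured RNAs and identifiers without a symbol were left out of both, 9113 and 9711 genes with 1 or more counts were seen against 9998 to 10540 expected, and 2145 and 2445 with 10 or more against 2526 to 2944. The gap was smaller over the same ordinary genes.

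In the fit with MT- genes removed, 2228 of 14713 genes were called, 15.1% of those tested. Of these, 973 were called higher in the second pair (6.61% of genes tested) and 1255 lower (8.53%). Of the calls, 43.7% were higher, and this share turned on the scaling. It was 62.9% with DESeq2, 57.7% with upper-quartile factors, 78.0% with TMM factors from genes chosen on the first pair and 6.57% with library size alone. Leaving out 1 library lowered the 2228 calls to 1645 or 1454 without replicate 1 or 2 of the first pair, and to 1027 or 870 without replicate 1 or 2 of the second, where the lone library is assumed to vary like the others. The median log2 fold change over all genes tested was -0.77 in the edgeR fit and -0.12 in DESeq2, and it was -0.18 in the edgeR fit when the genes at 0 in a pair were set at the bound that 3 counts allow, which left out 3749 genes with no fold. TMM factors matched a plain count of ordinary genes: the ratio of effective library sizes between pairs differed from that of the counts of other named genes by -0.03 and -0.09 on the log2 scale. Scaled CPM below are counts over the TMM-scaled library size of the same fit. All fold changes below are relative to ordinary nuclear genes in this sense, and on the TPM scale, where short RNAs take up much of the second pair, 11744 of 14713 genes were called lower by limma and 92 higher. Under TMM, DESeq2, upper-quartile and first-pair TMM scaling alike, 949 genes were called higher and 338 lower. Of the 1255 genes called lower, 1020 passed the filter through the first pair only and 156 had no count in the second pair.

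Small structured RNAs of the nucleus and cytosol had some of the largest rises. RN7SL2, a 7SL RNA that forms the core of the signal recognition particle, held 356 and 310 counts in the first pair and 3186 and 4804 in the second (log2 fold change 11.95 ± 0.45, edgeR adjusted p = 5.73e-150). RN7SL3, another 7SL gene, held 2 and 1 counts in the first pair and 280 and 446 in the second. SCARNA7, a small Cajal body RNA, held 4 and 1 counts in the first pair and 45 and 71 in the second. In each case the raw count was higher in both libraries of the second pair despite their depth, as it was for 0.312% of all genes tested, while 99.6% were lower in both. Of 25 matched genes on the list of small structured RNA and nuclear rRNA, 8 were tested and 6 were called higher, none lower. RN7SL2 was the 1 of these 6 that passed the filter through both pairs. The other 5, RN7SL3 and SCARNA7 among them, passed through the second pair only and so had to be high there, and their number supports nothing. The entry named 7SK, the RNA that holds back the elongation factor P-TEFb, had no count in the first pair and 8679 and 10316 in the second. A separate entry for the same RNA, RN7SK, held 111 and 47 counts in the first pair and none in the second, so these entries cannot be compared one by one. The 7SL genes are near-identical copies whose reads may be split between them.

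Sequences in the nucleus that copy mitochondrial genes moved with the MT- genes. MTATP6P1, a nuclear copy of MT-ATP6, held 228 and 222 counts in the first pair and 1469 and 1713 in the second (log2 fold change 11.20 ± 0.42, edgeR adjusted p = 1.04e-150). MTND2P28 held 26.9 and 24.9 counts in the first pair and 82.2 and 97.3 in the second. Of the 13 matched on the list 4 were tested, and these were called higher. MTATP6P1 and MTND2P28 passed the filter through both pairs, while the other 2 passed only through the second pair, where they had to be high. Their reads can be shared with the mitochondrial genes, whose rise stands beside theirs.

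Replication-dependent histone mRNAs, which end in a stem-loop in place of a poly(A) tail, were called higher in the second pair more often than lower. Of 55 matched genes 22 were tested, and 19 were called higher and 1 lower, with a median log2 fold change of 5.53. Of these, 7 passed the filter through the second pair only, where they had to be high. Without them 12 of 15 were called higher and 1 lower, with a median of 4.37. H4C3, a histone H4 gene, had no count in the first pair and 81 and 100 in the second, at least 10047-fold higher in scaled CPM when the first pair is set at 3 counts per library. H4C5 had none in the first pair and 34 and 89 in the second. H1-4, a linker histone, held 7 and 0 counts in the first pair and 21 and 46 in the second. These 3 are among the 7 that passed through the second pair only. H2AC6 held 1088 and 1108 counts in the first pair and 34 and 64 in the second, or 21.5 and 20.7 against 236 and 381 scaled CPM (log2 fold change 3.88 ± 0.32, edgeR adjusted p = 2.85e-31). Histone genes resemble each other, so reads may be split among them. By limma on log2(TPM + 1), 16 of the histone genes were called higher and 1 lower.

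Among abundant long non-coding RNAs, 8 of 15 tested were called higher and 1 lower on the TMM scale, against none higher and 10 lower by limma on log2(TPM + 1). The calls on the TMM scale made up 60% of the list, beside 15.1% of all genes tested. MALAT1, a nuclear RNA whose end is a triple helix and not a poly(A) tail, held 369 and 316 scaled CPM in the first pair and 11851 and 6279 in the second (log2 fold change 4.72 ± 0.32, edgeR adjusted p = 5.02e-47). NEAT1, the scaffold of paraspeckles, rose from 761 and 862 to 1751 and 1911 scaled CPM (log2 fold change 1.17 ± 0.27, edgeR adjusted p = 2.77e-04). ZFAS1, a host of small nucleolar RNAs, rose by a log2 fold change of 2.45 ± 0.28, and NORAD, a cytoplasmic RNA that binds Pumilio proteins, by 1.51 ± 0.28. TUG1 was the 1 called lower, at -1.86 ± 0.45. NORAD lost its call without replicate 1 of the second pair, and NEAT1 and TUG1 without replicate 2.

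Genes for cytosolic ribosomal proteins, which have short and abundant mRNAs, were called higher more often than lower on the TMM scale but not on the TPM scale. Of 79 tested, 47 were called higher, 1 lower and 31 neither, with a median of 1.09. Thus 60.8% of the list was called, beside 15.1% of all genes tested. RPS21 of the small subunit held 3093 and 2949 counts in the first pair and 964 and 1234 in the second, which is 61.0 and 55.2 against 6697 and 7344 scaled CPM (log2 fold change 6.92 ± 0.35, edgeR adjusted p = 3.51e-84). RPL26 of the large subunit rose from 522 and 379 to 8197 and 8499 scaled CPM (log2 fold change 4.21 ± 0.31, edgeR adjusted p = 2.15e-39). RPL4 lay at 2029 and 1648 scaled CPM in the first pair and 1035 and 1196 in the second and was not called (edgeR adjusted p = 0.053). RPL3 was the 1 called lower, at -1.80 ± 0.30. The calls of the list followed the scaling: with library size alone 29 were called higher and 22 lower, and by limma on log2(TPM + 1) 3 higher and 63 lower. Ribosomal protein genes have many processed pseudogenes, and reads may be split with them.

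Nuclear genes for respiratory chain subunits, whose products join those of the mitochondrial mRNAs, were likewise called higher more often on the TMM scale but not on the TPM scale. Of 76 tested, 40 were called higher, 2 lower and 34 neither, so 55.3% were called, beside 15.1% of all genes tested. The median of 1.49 was far below the 11.69 of the mitochondrial mRNAs in the fit with all genes. For 30 of these 76, the share in the first pair would give 10 or more counts at the depth of the second. Their median was 0.50, beside -0.58 for all 4463 such genes. UQCRB, a small complex III subunit, rose from 59.8 and 51.8 to 875 and 1083 scaled CPM (log2 fold change 4.13 ± 0.30, edgeR adjusted p = 8.12e-41). COX6B1, a small complex IV subunit, rose from 85.9 and 67.0 to 445 and 452 (log2 fold change 2.55 ± 0.29, edgeR adjusted p = 4.75e-16). ATP5F1B, the catalytic beta subunit of the ATP synthase, did not pass the test (log2 fold change -0.29 ± 0.29, edgeR adjusted p = 0.59). The 2 called lower were UQCRC1 (-1.66 ± 0.49), a core subunit of complex III, and NDUFA11, which held 1061 and 657 counts in the first pair and 0 and 0.35 in the second. With library size alone 19 were called higher and 16 lower, and by limma on log2(TPM + 1) 2 higher and 47 lower. Without replicate 2 of the second pair 24 were called higher and none lower, NDUFA11 lost its call when any 1 of the 4 libraries was left out, and UQCRC1 lost it without replicate 1 of the first pair or either replicate of the second.

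Genes for transcription and handling of RNA in mitochondria had calls in both directions. Of 26 tested, 3 were called higher, 2 lower and 21 neither, so 19.2% were called, beside 15.1% of all genes tested. The median log2 fold change was -0.53. This was above the -0.77 of all genes, but the order turned when genes at 0 in a pair were set at their bounds and those that allow no fold left out (-0.35 against -0.18) and with DESeq2 (-0.42 against -0.12). Over the 8 members expected at 10 or more counts in the second pair from their first-pair share, the median was -0.75. It was -0.58 over all 4463 such genes. TFAM, which packages mitochondrial DNA and starts its transcription, held 68.8 and 50.8 scaled CPM in the first pair and 243 and 149 in the second (log2 fold change 1.70 ± 0.33, edgeR adjusted p = 6.67e-06). SLIRP, which stabilizes mitochondrial mRNAs, and TRMT10C, a subunit of mitochondrial RNase P, were the others called higher, at 2.19 ± 0.40 and 2.07 ± 0.72. The 2 called lower were the mitochondrial DNA helicase TWNK, at -2.63 ± 0.84, and the mitochondrial DNA polymerase POLG, at -3.87 ± 0.96. TWNK held 1 count in each second-pair library and POLG 0 and 1, so these values rest on very few counts. Without replicate 1 of the second pair 1 gene was called higher and none lower, and without replicate 2 of it 2 higher and 1 lower. TFAM and POLG lost their calls without replicate 1 of the second pair, TWNK without replicate 2 of the first or either replicate of the second, and TRMT10C when any 1 of the 4 libraries was left out. DESeq2 called neither TWNK nor POLG, and TFAM, SLIRP and TRMT10C turned negative on the TPM scale.

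The plot of gene lists sets these groups side by side.

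**Figure D3:**
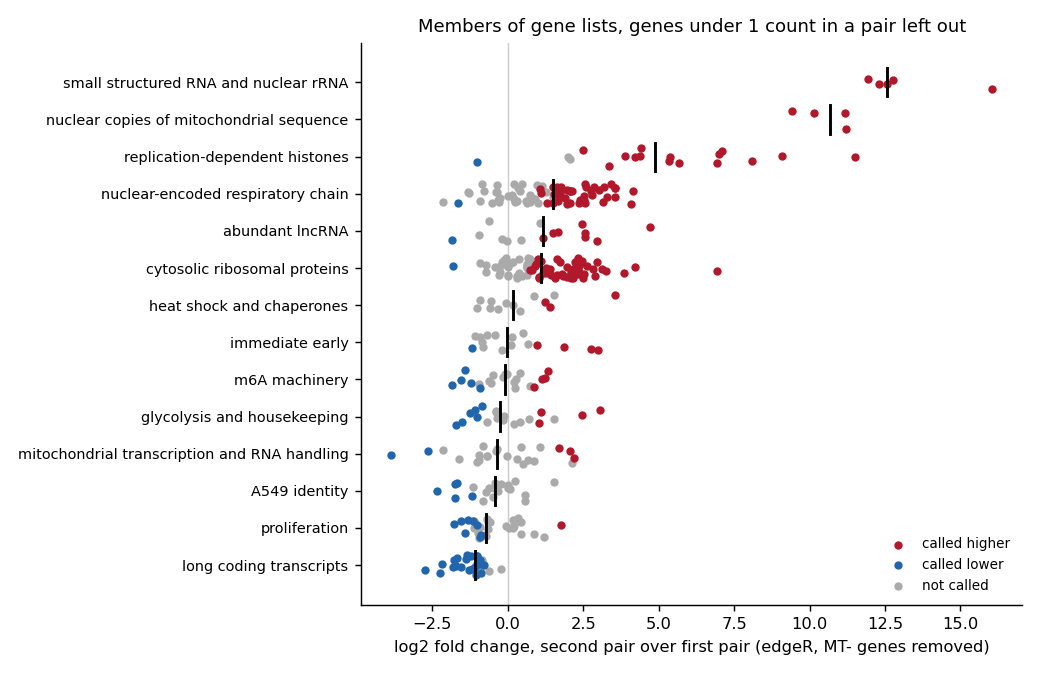
Each point is 1 tested gene, at its edgeR log2 fold change of the second pair over the first (horizontal axis), in its list (rows), with the list's median as a black bar and genes under 1 count in a pair left out. Small structured RNAs, nuclear copies of mitochondrial genes and histones lay farthest right, and 22 of the 27 long coding transcripts were called lower (blue). Of those tested, 5 of 8 small structured RNAs, 2 of 4 nuclear copies and 7 of 22 histones passed through the second pair only. These had to be high there, so their place supports nothing. RN7SK and RN7SL1, without a count in the second pair, are not shown.

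Genes with long coding transcripts were lower in the second pair. Of 27 tested, 22 were called lower and none higher, with a median of -1.07. All 27 were expected at 10 or more counts in the second pair from their first-pair share. Of all 4463 such genes, 1090 were called lower and 464 higher, with a median of -0.58. FLNA, which encodes a filamin that cross-links actin, lay at 3508 and 2984 scaled CPM in the first pair and 993 and 851 in the second (log2 fold change -1.82 ± 0.28, edgeR adjusted p = 7.20e-09). MYH9, a non-muscle myosin heavy chain, fell by 1.07 on the log2 scale and AHNAK, a very large scaffold protein, by 0.78. The number called lower was 16 with DESeq2, 15 with upper-quartile factors and 5 with TMM factors from genes chosen on the first pair, none being called higher in any of these, and the list's median stayed below 0 in each. Without replicate 1 or 2 of the first pair 15 or 17 were called lower, and without replicate 1 or 2 of the second pair 8 or 6.

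Across genes in general the fold change went down as transcripts got longer. In the 1822 genes with 10 or more counts in both libraries of both pairs, cut into 5 equal groups by length, the median log2 fold change was 1.74 in the shortest group (median length 726 bases), then 0.79, 0.25 and 0.10, and -0.52 in the longest (4316 bases). In the shortest group 270 of 365 genes were called higher and 2 lower, and in the longest 36 were called higher and 112 lower. A gene with few counts passed this filter more easily if it was high in the second pair. The order was therefore also taken over 4463 genes chosen on the first pair alone. Their share there, of all counts outside MT- genes, would give 10 or more counts in each library of the second pair. Their medians were 0.24, -0.40, -0.66, -0.82 and -0.997 from the shortest to the longest group. Spearman's rho of length and fold change was -0.533 in the 1822 genes and -0.350 in the 4463, as a description across genes. Fragment length, and the classes of RNA above, moved with the same contrast, and their part in this was not tested.

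**Figure D4:**
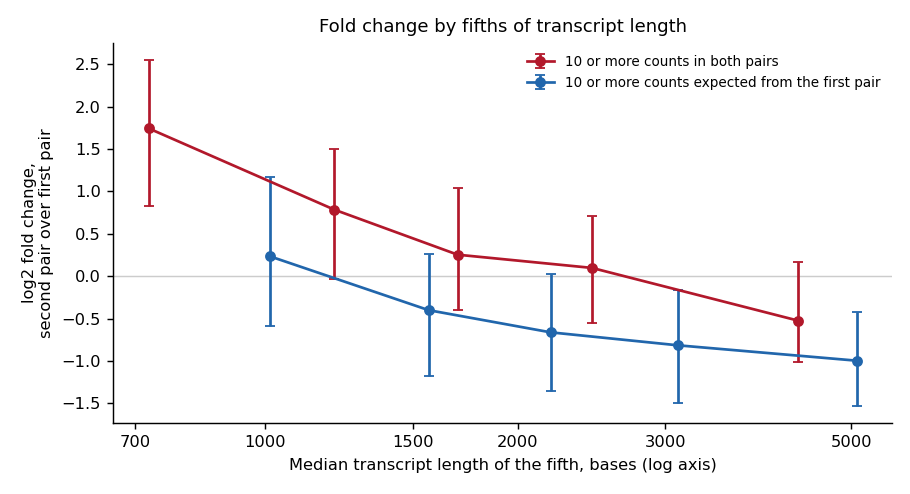
Points give the median log2 fold change of the second pair over the first (vertical axis) in 5 equal groups by transcript length, placed at the group's median length in bases (log axis), and bars run from the lower to the upper quartile of the genes. The median fell from 1.74 to -0.52 in genes with 10 or more counts in both pairs (red) and from 0.24 to -0.997 in genes chosen on the first pair (blue).

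Abundant genes that mark A549 cells had counts in the second pair, but much of the A549 list was thinly covered there. ALDH1A1, an aldehyde dehydrogenase abundant in A549, lay at 3902 and 4064 scaled CPM in the first pair and 4633 and 4743 in the second (log2 fold change 0.24 ± 0.27, edgeR adjusted p = 0.66). KRT7, an epithelial keratin, lay at 3211 and 1989 against 2862 and 2375 (log2 fold change 0.01 ± 0.27), and the groups overlapped. KRT8 had a log2 fold change of -0.34 ± 0.27 and was not called, and its partner KRT18 was called lower at -1.19 ± 0.28. Of 24 genes tested on the A549 list, none was called higher and 5 were called lower, with a median of -0.46. The calls made up 20.8% of the list, beside 15.1% of all genes tested. Of the 24, 12 passed the filter through the first pair only, and 2 of these had no count in the second pair. At such counts the lack of a call says little. Against all genes this list lay higher in the edgeR fit (-0.77 for all genes) and lower once genes at 0 were set at their bounds (-0.44 against -0.18), with DESeq2 (-0.36 against -0.12) and by limma on log2(TPM + 1) (-3.33 against -2.46). Over the 18 members expected at 10 or more counts in the second pair from their first-pair share, the median was -0.39. It was -0.58 over all 4463 such genes. KRT18 lost its call without replicate 1 of the second pair, and 3 to 6 genes were called lower, and at most 1 higher, when 1 library was left out. CDKN2A, a cell cycle inhibitor locus deleted in A549, held 6 counts in replicate 1 of the first pair and none in the other 3 libraries, and the lung differentiation genes NKX2-1 and SFTPC held none in all 4.

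The second pair was also placed on genes that separate A549 from A549/DDP. Of 156 genes called higher in the first A549 pair than in A549/DDP, with a log2 fold change of at least 2, 120 and 112 lay on the A549 side of the midpoint in the libraries of the second pair (76.9% and 71.8%). Of 79 genes called higher in A549/DDP, 76 and 77 did (96.2% and 97.5%). For these 79 the A549 side is the lower side. Among the 4463 genes expected at 10 or more counts in the second pair, 1090 were called lower there and 464 higher. A general fall would place genes on that side whatever the line, so the share of these 79 does not bear on the label. Markers of other cell types were at or near 0 in the second pair: of 16, only COL1A1 held a count there, 1 in replicate 1. The list held 1285 and 739 counts in the first pair, where ALB held 825 and 272. The share of ALB would give 3.31 counts at the depth of the second pair, so such zeros say little.

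Housekeeping genes were mixed. Of 20 tested on the list of glycolysis and housekeeping genes, 4 were called higher, 6 lower and 10 neither, with a median of -0.26. Calls fell on 50% of the list, beside 15.1% of all genes tested. ACTG1, a cytoplasmic actin, lay at 3435 and 2694 scaled CPM in the first pair and 3001 and 2595 in the second and overlapped, and ACTB, PKM and EEF1A1 were not called either, at -0.18 ± 0.27, -0.40 ± 0.27 and -0.70 ± 0.27. GAPDH, a glycolytic enzyme often used as a reference, fell from 1661 and 1673 to 771 and 785 (log2 fold change -1.10 ± 0.28, edgeR adjusted p = 0.0012), and the elongation factor EEF2 from 1722 and 1769 to 618 and 601 (log2 fold change -1.52 ± 0.28, edgeR adjusted p = 2.58e-06). When either library of the second pair was left out 2 were called lower and GAPDH was not among them, while EEF2 was called lower under every setting tried. ACTG1 and ACTB turned positive with upper-quartile factors and with TMM factors from genes chosen on the first pair, which also turned PKM positive.

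Genes of the cell cycle were lower or not called, with 1 exception. Of 32 tested, 8 were called lower, 1 higher and 23 neither. These calls made up 28.1% of the list, beside 15.1% of all genes tested. The median log2 fold change of the list was -0.71. It was close to the -0.77 of all genes in the same fit, but below the -0.18 of all genes at their bounds, and with DESeq2 it was -0.61 against -0.12. Over the 29 members expected at 10 or more counts in the second pair from their first-pair share, the median was -0.75. It was -0.58 over all 4463 such genes, of which 1090 were called lower and 464 higher. MKI67, a marker of cycling cells with a long mRNA, fell from 516 and 612 to 201.5 and 220.2 scaled CPM (log2 fold change -1.42 ± 0.30, edgeR adjusted p = 7.79e-05). TOP2A, a topoisomerase of dividing cells, fell by 0.90 and the spindle protein TPX2 by 1.02 on the log2 scale. CCND1, the cyclin D1 gene, was called lower at -1.17 ± 0.33, and CDK4, its partner kinase, at -1.33 ± 0.49 (edgeR adjusted p = 0.044) from 5 counts in each second-pair library. CDK1, the mitotic kinase, was the gene called higher, with 26 and 12 counts and a log2 fold change of 1.74 ± 0.37. The number called lower was 5 with DESeq2, 4 with upper-quartile factors and 2 with TMM factors from genes chosen on the first pair. It was 3 without replicate 2 of the first pair, 0 without replicate 1 of the second and 3 without replicate 2 of the second, CDK4 lost its call when any 1 library was left out, and CDK1, which was negative on the TPM scale, lost its call without replicate 1 of the second.

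Genes of stress and growth responses were called in both directions, 29.4% of the immediate early genes tested and 28.6% of the chaperones. Of all genes tested, 15.1% were called. Of 17 immediate early genes tested, which respond within minutes to serum or stress, 4 were called higher and 1 lower. FOSL1, an AP-1 subunit, had a log2 fold change of 1.87 ± 0.28 and the matrix protein gene CCN1 of 0.96 ± 0.27, while CCN2, a relative of CCN1, was called lower at -1.17 ± 0.33. Of 14 heat shock and chaperone genes tested, 3 were called higher and 1 lower. HSP90B1, the chaperone of the endoplasmic reticulum, rose from 773 and 588 to 1806 and 1797 scaled CPM (log2 fold change 1.40 ± 0.27). The 1 called lower was HSPA1A, an inducible chaperone, with 850 and 825 counts in the first pair and none in the second. HSPA1A lost its call when any 1 of the 4 libraries was left out, and CCN1 and CCN2 when either library of the second pair was. By limma on log2(TPM + 1) none of either list was called higher, 13 of the early genes and 12 of the chaperones were called lower, and FOSL1, CCN1 and HSP90B1 were negative.

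The genes the study turns on, and the m6A machinery, were thinly covered in the second pair. YTHDF1, the m6A reader that the study examines, held 3511 and 2943 counts in the first pair and 8 and 11 in the second, or 69.2 and 55.1 against 55.6 and 65.5 scaled CPM, which overlapped (log2 fold change -0.03 ± 0.43, edgeR adjusted p = 0.97). NFE2L2, the transcription factor NRF2, held 24 counts in each second-pair library (0.09 ± 0.33, edgeR adjusted p = 0.86), and AKR1C1, an aldo-keto reductase, held 5.26 and 11.3 (-0.48 ± 0.44, edgeR adjusted p = 0.55). KEAP1, which directs NRF2 to degradation, held 1379 and 1933 counts in the first pair and none in the second (edgeR adjusted p = 0.0016). Its first-pair share of counts outside MT- genes would give 10.1 in the second pair. Other named genes held only 47.9% and 44.8% of such counts there, so fewer would be expected on the TMM scale. Set at 3 counts per library, KEAP1 was at least 1.65-fold lower. Of 21 m6A writers, erasers and readers tested, 4 were called higher, 5 lower and 12 neither, with a median of -0.09. Calls fell on 42.9% of these 21, beside 15.1% of all genes tested. The abundant nuclear RNA binders HNRNPA2B1 and HNRNPC were among those called higher, at 0.86 ± 0.27 and 1.12 ± 0.27, and the reader IGF2BP1 was called lower at -0.92 ± 0.33. These 3 calls and that of KEAP1 were lost when either library of the second pair was left out, and HNRNPA2B1 and HNRNPC were negative with library size alone and on the TPM scale. Without replicate 1 of the second pair none of the 21 was called, and without replicate 2 of it 1 was called higher and none lower.

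Some of the genes called lower had no count in the second pair. The tables of both pairs list the same 58037 identifiers with the same transcripts, but no source used here says whether strand was handled alike in both, which bears on what a count of 0 in 1 pair means. Of the 4463 genes whose share in the first pair would give 10 or more counts, 29 had no whole count in either library of the second pair. These shares are of all counts outside MT- genes. Other named genes held 99.2% of such counts in both libraries of the first pair, but 47.9% and 44.8% in the second. The expected counts are therefore too high for ordinary genes. MLLT1, a subunit of elongation complexes, held 2943 and 2938 counts in the first pair and was at least 2.94-fold lower in the second. RAB11FIP5, which acts in vesicle recycling, held 2717 and 2985 and was at least 2.85-fold lower. KRT87P and KRT86, a keratin pseudogene and a hair keratin gene near other keratins of similar sequence, were at least 4.33-fold and 3.74-fold lower. The fitted fold changes of such genes depend on edgeR's prior count and are not given.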

How the data were processed

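A549 and A549/DDP input libraries were grouped by their labels, and the pairs were told apart by the full stop that ends the titles of the second pair. The submitters' processing notes name STAR, RSEM and bedtools, without versions, and hg38. The authors deposited a gene table for each input with expected counts, which RSEM estimates from the aligned reads without normalization, and with TPM and FPKM, which RSEM scales for effective length and library size. Poly(A) selection and a stranded kit are described by the study for m6A-seq, and no label ties either pair to a protocol. The peak lists of the m6A-seq libraries were not used here. Of the identifiers, 56993 were found in the table of names, 41484 of them with a symbol, and 37 symbols start with MT-. Biotypes came from RefSeq (GRCh38.p14) by symbol.

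Rounded expected counts of the pairs were compared by the quasi-likelihood test of edgeR 4.0.16 (R 4.3.3) with TMM factors, with Benjamini-Hochberg adjustment over all genes tested, before and after MT- genes were removed. SE is the size of the log2 fold change over the square root of F. The code was tested on simulated data. Nothing says that the 2 libraries of a pair came from separate cultures, so p-values measure only the spread between these libraries, which may be technical. Their counts differed by more than sampling noise (chi-square per degree of freedom 89.6 in the first pair and 2.41 in the second), so each library was counted once. DESeq2 1.42.0, limma 3.58.1 on log2(TPM + 1) or log2(TPM + 0.1), other scalings and filters, all 6 inputs and the leaving out of single libraries were alternatives. Thinning used the Poisson expectation, and bounds set a pair without counts at 3 counts per library. Python 3.11.15, numpy 2.4.6, pandas 2.3.3, scipy 1.17.1 and matplotlib 3.10.9 were used.

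The members, the 18 gene lists and the tests were chosen with earlier results of these data known, and 505 of 526 list entries were matched by symbol. Named genes were the MT- genes, the 10 largest rises and 10 largest falls among called genes with at least 10 counts, or 10 expected, in each second-pair library, the 4 most abundant members of each list, the 5 highest by TPM in each pair, and genes the study names. Not all are printed, and 2 members of the lists are not reported here. RN7SK, H1-4, TUG1, RPL3, UQCRC1, NDUFA11, SLIRP, TRMT10C, TWNK, POLG, KRT18, GAPDH, EEF2, CCN2, HSPA1A and CDK1, and the genes printed in the closing section, were added after their values were seen.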

Additional observations from a re-analysis of the deposited data

How the results depend on the processing

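Depth limits the second pair: a gene at 0 in it may hold up to 3 counts, and 3885 genes tested had none in either library. With all genes the 2253 calls became 11597 with library size alone, 1112 of 1837 genes with 10 or more counts in both libraries of both pairs, and 13674 and 13449 by limma on log2(TPM + 1) and log2(TPM + 0.1). With MT- genes removed the 2228 calls became 5570, 1094 of 1822, 11836 and 10930 in the same order. Fewer genes entered the second of these, and the cause of the others was not tested. The counts by DESeq2, upper-quartile factors, filterByExpr, no filter beyond 1 count, all 6 inputs, TMM factors from genes chosen on the first pair and the removal of further classes stayed within 1.5 times (1604 to 2247 with MT- genes removed). Leaving out 1 library gave 884 to 1625 calls with all genes and 870 to 1645 with MT- genes removed. The difference in the share of MT- genes was 74.5 percentage points by counts, 58.1 by TPM, and 73.9 to 75.2 with 1 library left out. Pearson's r between the pairs, 0.775 with MT- genes removed, was 0.717 with them, 0.602 over genes with 10 or more counts in both pairs, and 0.743 to 0.778 with 1 library left out.

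Of 1385 repeats over 82 named genes, 1165 kept direction and side of the threshold, 115 lost the call, 44 gained one and 61 changed sign. By limma on log2(TPM + 1) the log2 fold change was negative for NEAT1 (-1.42), ZFAS1 (-0.75), NORAD (-1.53), COX6B1 (-0.12), TFAM (-1.80), SLIRP (-0.27), TRMT10C (-0.83), ALDH1A1 (-2.64), KRT7 (-2.79), HSP90B1 (-0.91), CCN1 (-1.94), FOSL1 (-1.20), CDK1 (-1.38), HNRNPA2B1 (-1.81), HNRNPC (-1.47) and NFE2L2 (-2.71). On log2(TPM + 0.1) the values were NEAT1 -1.42, ZFAS1 -0.75, NORAD -1.56, COX6B1 -0.12, TFAM -1.83, SLIRP -0.27, TRMT10C -0.88, ALDH1A1 -2.64, KRT7 -2.79, HSP90B1 -0.91, CCN1 -1.95, FOSL1 -1.21, CDK1 -1.43, HNRNPA2B1 -1.81, HNRNPC -1.47 and NFE2L2 -2.75. With library size alone it was -0.92 for ALDH1A1, -1.13 for KRT7, -0.18 for CCN1, -0.30 for HNRNPA2B1, -0.024 for HNRNPC and -1.06 for NFE2L2. With TMM factors from genes chosen on the first pair, a choice made after seeing the data, it was 0.16 for ATP5F1B, 0.32 for ACTG1, 0.28 for ACTB, 0.058 for PKM, 0.11 for KRT8 and 0.43 for YTHDF1. With upper-quartile factors it was 0.081 for ACTG1, 0.036 for ACTB and 0.18 for YTHDF1, and DESeq2 gave YTHDF1 0.073. Over genes with 10 or more counts in both pairs it was -0.21 for ALDH1A1, -0.42 for KRT7 and -0.34 for NFE2L2. KRT7 was -0.015 with filterByExpr and -0.023 with no filter beyond 1 count. With 1 library left out, the values ran from -0.28 to 0.36 for KRT7, -0.86 to 0.35 for KRT8, -0.28 to 0.018 for ACTG1, -0.17 to 0.11 for YTHDF1 and -0.016 to 0.21 for NFE2L2. For these genes too the cause was not tested.

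The replicate numbers are shared by the pairs, but nothing says that they mark a shared culture or day. With the replicate number as a block, 2257 genes were called with all genes and 2233 with MT- genes removed. The deviations of same-numbered libraries from their pair's mean correlated at 0.083 over all genes tested and at 0.291 over the 1822 genes with 10 or more counts in both libraries of both pairs. The block took away the calls of NDUFA11, TRMT10C and HSPA1A, added RPL4 and EEF1A1, and changed no other call of a named gene.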

Other observations

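The 2 constant regions of the T cell receptor gamma locus were among 16 genes called higher without a count in the first pair, as were H4C3 and H4C5. Both regions passed the filter through the second pair only, where they had to be high. TRGC2 had no count in the first pair or in A549/DDP and 625 and 662 in the second pair. TRGC1 had none in the first pair or in A549/DDP and 53 and 56 in the second pair. CD3E, a gene of T cells, was at 0 in all 4 A549 inputs, and PTPRC was at 0 in the second pair. Other named genes held only 101358 and 114667 counts in the second pair, so these zeros say little there. The source of the counts on TRGC1 and TRGC2 was not tested. SNRPF, a core protein of the spliceosome, held 2579 and 2055 counts in the first pair and 823 and 932 in the second (log2 fold change 6.98, edgeR adjusted p = 1.51e-86). BCYRN1, a small RNA gene of the Alu family, held 778 and 756 counts in the first pair and 22 and 22 in the second (log2 fold change 3.26, edgeR adjusted p = 1.75e-15).

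Several identifiers without a symbol held many counts in the second pair. ENSG00000280614 and ENSG00000280800 held the same expected counts in each library, 4274 and 4773 in the first pair, 29752 and 36624 in the second, and 9061 and 15745 in A549/DDP. ENSG00000281181 held the same in all but replicate 2 of the second pair, where it held 40260. ENSG00000283029, of 300.0 bases, had no count in the first pair and 4699 and 6585 in the second. RMRP, the RNA of RNase MRP, held 46 and 6 counts in the first pair and none in the second, while RN7SL1 held 170 and 133 in the first pair and none in the second, opposite to RN7SL2 and RN7SL3. RN7SL5P, listed as a 7SL pseudogene, had none in the first pair and 733 and 1153 in the second. How reads were divided among like sequences was not tested.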
